A study of Homo sapiens with 12 samples.

Results

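The 10 genes described here belong to the transforming growth factor β (TGF-β) and bone morphogenetic protein (BMP) pathways: the receptors TGFBR1 and TGFBR2, the ligands TGFB1, TGFB2, BMP4 and BMP7, the inhibitory SMADs SMAD6 and SMAD7, and the target genes ID1 and ID3. They were taken by gene name from the count tables, in which 10 of 10 were found among 60645 gene names. All 10 also passed a filter on low counts that left 20377 genes for testing, and the filter used every group alike.

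TGF-β and BMP ligands are secreted proteins that bring together pairs of receptor kinases on the cell surface. The activated receptors phosphorylate receptor SMADs, which join SMAD4 and bind DNA in the nucleus. The TGF-β branch works mainly through SMAD2 and SMAD3, and the BMP branch through SMAD1, SMAD5 and SMAD9. SMAD6 and SMAD7 are induced by the pathway and block it in a negative feedback loop, and the ID genes, which encode inhibitors of basic helix-loop-helix transcription factors, are classical BMP targets.

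The libraries were made from polyA RNA of an ARID1A knockout of HEK-293T (named 12KO in the series' text), a line derived from human embryonic kidney. ARID1A belongs to the BAF (SWI/SNF) complex, which remodels chromatin, and IDR1b lies in one of its intrinsically disordered regions. Into these cells went either an empty vector (no ARID1A), wild-type ARID1A (WT) or ARID1A without IDR1b (ΔIDR1b), and on top either EWS-FLI1, the fusion transcription factor of Ewing sarcoma, or a further empty vector. The study asked what IDR1b does in gene regulation by EWS-FLI1, so the comparisons are between the 3 ARID1A states within each vector and between EWS-FLI1 and the empty vector within each state. Each of the 6 groups held 2 libraries, 12 in all, from the same knockout line, and every group, the controls included, carries the knockout. Every library carries the same treatment text, which names 2 µg of the EWS-FLI1 plasmid followed by 48 h of growth, also where the title gives an empty vector. Nothing in them says that the libraries of a group came from separate cultures, so p-values measure the spread between these libraries, which may be technical.

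Library totals ran from 11702251 to 14445379 counts, and no pair of libraries in a group was identical. ARID1A itself read 147 to 165 CPM (counts scaled to an equal library total) in the 4 libraries without added ARID1A, 1843 to 2291 in the 4 WT libraries and 2608 to 2878 in the 4 ΔIDR1b libraries. FLI1 read between 0 and 0.146 CPM with the empty vector. In the EWS-FLI1 libraries it averaged 1759 CPM without ARID1A, 3568 in WT and 1897 in ΔIDR1b. The amount of ARID1A transcript thus differs between WT and ΔIDR1b, and that of FLI1 transcript between WT and both other states; the part of either in the results below was not tested. Of 7 markers of HEK-293T cells, 6 were above 1 CPM in every library (NEFM was not), and 0 of 8 markers of blood, endothelial, liver and stromal cells were. Some of these 8 passed 1 CPM in single libraries, with LUM the highest at 2.50 CPM. The 8 summed to 2.35 to 5.43 CPM in a library, and the 7 to 884.6 to 1223 CPM.

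The feedback inhibitors and ID3 were lower in knockout cells given either form of ARID1A. ID3 fell 1.92-fold with WT and 3.96-fold with ΔIDR1b with the empty vector, and SMAD6 and SMAD7 fell between 1.65-fold and 1.93-fold with either form. With ΔIDR1b, ID1 fell as well, and TGFBR1 and TGFBR2, the receptors, rose 1.43-fold and 1.85-fold. Between the 2 forms of ARID1A, ID1 and ID3 were lower in ΔIDR1b under both vectors, while the differences of SMAD6 and SMAD7 did not pass the test. EWS-FLI1 changed 0 of the 10 genes in any ARID1A state, where it changed 0.0442% (no ARID1A), 0.221% (WT) and 0.172% (ΔIDR1b) of all genes, so that a count of 0 among 10 does not set them apart. In these bulk libraries a lower level in every cell and fewer cells with the transcript cannot be told apart.

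A gene counted as called where edgeR's quasi-likelihood F-test gave a p under 0.05 after Benjamini-Hochberg adjustment over all 20377 genes. WT against no ARID1A called 4 of the 10 genes with the empty vector, 1 higher and 3 lower, where 11.7% of all genes were called (6.5% higher and 5.19% lower). ΔIDR1b against no ARID1A called 6, 2 higher and 4 lower, where 33.3% of all genes were called (16.4% and 16.8%). ΔIDR1b against WT called 3, 1 higher and 2 lower, against 24.5% of all genes (11.1% and 13.4%). With EWS-FLI1, WT against no ARID1A called 5 of the 10, 1 higher and 4 lower, where 18.1% of all genes were called (9.72% higher and 8.36% lower). ΔIDR1b against no ARID1A called 6, 2 higher and 4 lower, against 35.9% of all genes (18.1% and 17.9%). ΔIDR1b against WT called 2, 0 higher and 2 lower, against 18.6% of all genes (8.48% and 10.1%). The comparisons with no ARID1A share its libraries, so their counts are not independent of each other. The 10 genes were chosen with earlier results of these data known, so the counts cannot show that the set stands out. Without WT replicate 1 the count in ΔIDR1b against WT with the empty vector was 1, and without no ARID1A replicate 2 the count in WT against no ARID1A with EWS-FLI1 was 3. The 10 genes kept their counts under each scaling of the libraries tried. Over all genes the share of calls that were higher moved with upper-quartile scaling, from 55.6% to 39.4% in WT against no ARID1A and from 45.4% to 56.1% in ΔIDR1b against WT with the empty vector, and from 53.8% to 42.2% in WT against no ARID1A with EWS-FLI1. With the block within each vector 3606 genes in place of 2381 were called in WT against no ARID1A with the empty vector.

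The median log2 fold change over the 10 genes lay close to 0, with the called inhibitors and ID genes on the lower side and the called receptors and ligands on the higher side. It was 0.11 for WT and 0.09 for ΔIDR1b against no ARID1A with the empty vector, beside -0.01 and 0.00 over all genes tested. With EWS-FLI1 it was 0.14 and 0.13, beside -0.02 and 0.02 over all genes. Between ΔIDR1b and WT it was -0.08 (empty vector) and -0.13 (EWS-FLI1), beside 0.01 over all genes in each case.

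**Figure D1:**
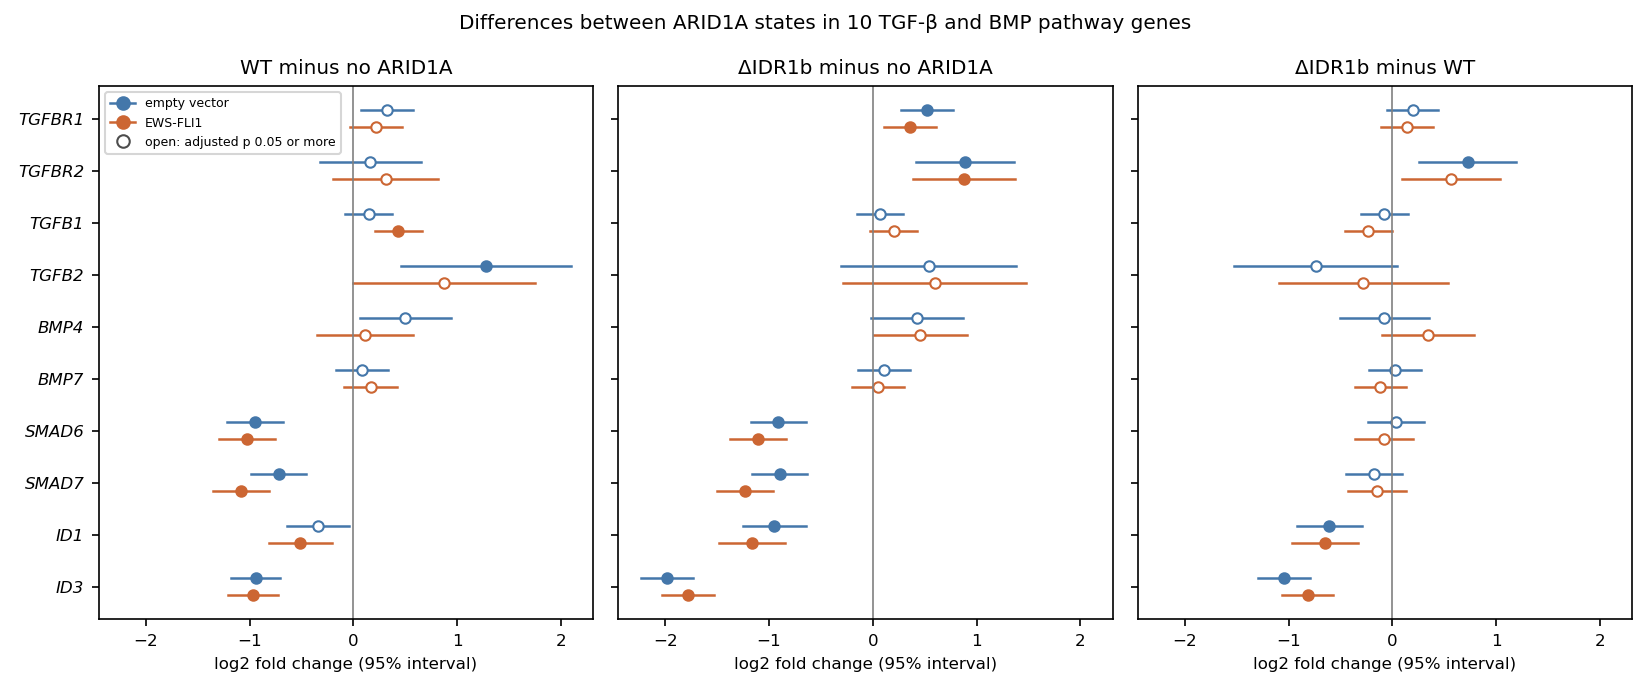
Log2 fold change (horizontal axis) of each of the 10 genes between ARID1A states, with the 95% interval from the model; blue is the empty vector, orange EWS-FLI1, and filled symbols have an adjusted p under 0.05. SMAD6, SMAD7 and ID3 lie below 0 in the 2 left panels under both vectors, and only ID1, ID3 and TGFBR2 have filled symbols in the right panel, where ΔIDR1b is set against WT.

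The promoters of the 2 receptors, which rose, and of SMAD6, SMAD7, ID1 and ID3, which fell, are given here. These were the 6 genes called in ΔIDR1b against no ARID1A under both vectors. RefSeq windows (GRCh38.p14) were matched by symbol for 9 of the 10 genes, all but BMP7, and the 250 bases before the transcription start were read. Some genes had several windows: 8 for TGFBR1, 3 each for BMP4 and SMAD7, and 2 for TGFBR2. For these only the window nearest the 5' end of the annotated gene was read, so promoters at their other starts were not searched. Both strands were searched for the SMAD palindrome GTCTAGAC, present in 0.182% of 35116 windows of that length, the GC-rich SMAD motif GGCGCC, present in 16.4%, the tandem GGAAGGAA, which is bound by ETS factors such as FLI1 and was present in 3.06%, and the AP-1 motif TGANTCA, present in 6.57%. Capitals mark a match, no motif overlapped another in these windows, and bases that the count files' annotation puts inside the gene were left out.

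TGFBR1 (chr9:99103802-99104037, plus strand): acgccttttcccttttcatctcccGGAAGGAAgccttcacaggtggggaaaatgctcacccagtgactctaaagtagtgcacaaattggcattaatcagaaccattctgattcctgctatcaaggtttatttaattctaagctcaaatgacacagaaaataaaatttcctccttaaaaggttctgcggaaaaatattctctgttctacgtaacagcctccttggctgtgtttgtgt
TGFBR2 (chr3:30606351-30606600, plus strand): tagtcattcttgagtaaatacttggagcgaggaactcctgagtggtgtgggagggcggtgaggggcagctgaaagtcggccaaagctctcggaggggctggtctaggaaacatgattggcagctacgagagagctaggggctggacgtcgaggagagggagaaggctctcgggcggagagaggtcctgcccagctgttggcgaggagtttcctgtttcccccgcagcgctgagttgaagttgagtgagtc
SMAD6 (chr15:66701986-66702235, plus strand): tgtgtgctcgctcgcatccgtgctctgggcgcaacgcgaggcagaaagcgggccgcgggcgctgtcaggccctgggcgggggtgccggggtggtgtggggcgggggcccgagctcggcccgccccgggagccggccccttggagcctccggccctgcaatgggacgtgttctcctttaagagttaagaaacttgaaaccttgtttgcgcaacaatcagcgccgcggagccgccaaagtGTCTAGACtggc
SMAD7 (chr18:48950966-48951215, minus strand): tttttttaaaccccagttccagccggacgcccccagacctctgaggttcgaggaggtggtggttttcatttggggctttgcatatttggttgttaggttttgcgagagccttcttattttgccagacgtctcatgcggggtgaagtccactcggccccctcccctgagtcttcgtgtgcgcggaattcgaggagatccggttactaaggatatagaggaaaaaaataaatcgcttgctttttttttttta
ID1 (chr20:31605039-31605282, plus strand): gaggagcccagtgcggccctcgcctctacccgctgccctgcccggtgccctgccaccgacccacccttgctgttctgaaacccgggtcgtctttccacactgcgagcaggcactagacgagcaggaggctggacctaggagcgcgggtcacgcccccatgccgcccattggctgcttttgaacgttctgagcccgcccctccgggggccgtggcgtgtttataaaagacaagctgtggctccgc
ID3 (chr1:23559502-23559751, minus strand): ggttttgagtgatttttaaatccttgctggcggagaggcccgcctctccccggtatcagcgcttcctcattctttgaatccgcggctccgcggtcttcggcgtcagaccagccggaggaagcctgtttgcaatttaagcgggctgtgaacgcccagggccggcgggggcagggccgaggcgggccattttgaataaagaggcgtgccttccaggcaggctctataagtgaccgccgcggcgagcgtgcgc

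The SMAD6 window held the SMAD palindrome, starting 12 bases before the transcription start, and the TGFBR1 window held the tandem GGAA, starting 226 bases before it. BMP4, not printed because its window lies inside the annotated gene, held the GC-rich motif 232 bases upstream. The windows read for TGFBR2, TGFB1, TGFB2, SMAD7, ID1 and ID3 held none of these motifs. For TGFBR2 and SMAD7 this does not cover their other windows. GC content was 68.0% for SMAD6, 66.0% for ID1, 62.0% for ID3 and 48.0% for SMAD7, against 58.4% for TGFBR2, 40.8% for TGFBR1 and a median of 58.0% over all windows. CpG dinucleotides numbered 25 in SMAD6, 24 in ID3, 19 in ID1, 13 in SMAD7, 12 in TGFBR2 and 4 in TGFBR1, beside a median of 11. For TGFBR1, TGFBR2 and SMAD7 the GC and CpG values are those of the window read, out of 8, 2 and 3, and may not hold at their other starts. A match here is a description of letters and says nothing about binding in these cells.

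TGFBR1 (GRCh38, chr9:99104038-99154192, plus strand) encodes the type I TGF-β receptor kinase. Its level with the empty vector was 38.3 and 36.5 CPM without ARID1A, 46.6 and 46.8 in WT, and 55.6 and 51.5 in ΔIDR1b. With EWS-FLI1 it was 44.0 and 37.8, 47.9 and 47.1, and 53.1 and 51.8 CPM in the same order. The libraries of the 3 states did not overlap under either vector, with ΔIDR1b highest and no ARID1A lowest. TGFBR1 rose in ΔIDR1b against no ARID1A by 0.52 ± 0.12 (SE) on the log2 scale with the empty vector (adjusted p = 0.001316) and by 0.36 ± 0.12 with EWS-FLI1 (adjusted p = 0.02167). WT against no ARID1A gave 0.32 ± 0.12 (adjusted p = 0.08723) and 0.22 ± 0.12 (adjusted p = 0.2395). With a block for the repeat number, set within each vector, the value with the empty vector passed the test (0.32, adjusted p = 0.04222). The rise with EWS-FLI1 was lost with no filter on low counts (0.35, adjusted p = 0.05926) and when no ARID1A replicate 2 (0.25, adjusted p = 0.2711), ΔIDR1b replicate 1 (0.34, 0.1071) or ΔIDR1b replicate 2 (0.38, 0.06835) was left out.

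TGFBR2 (chr3:30606601-30694142, plus strand), the type II receptor that binds the ligand first, was a low gene. With the empty vector it read 6.17 and 8.75 CPM without ARID1A, 7.51 and 9.19 in WT, and 14.3 and 13.4 in ΔIDR1b. With EWS-FLI1 it read 7.08 and 5.18, 8.96 and 6.29, and 12.4 and 10.2 CPM. Both ΔIDR1b libraries lay above every other library of their vector, and no ARID1A and WT overlapped. TGFBR2 rose in ΔIDR1b against no ARID1A by 0.89 ± 0.23 (adjusted p = 0.00302) with the empty vector and by 0.88 ± 0.24 (adjusted p = 0.004238) with EWS-FLI1. Against WT it rose by 0.73 ± 0.23 (adjusted p = 0.01806) with the empty vector, and the difference with EWS-FLI1 was 0.57 ± 0.23 (adjusted p = 0.084), which passed with the repeat number as a block (0.58, adjusted p = 0.03817). These calls rest on few libraries: that against no ARID1A was lost without its replicate 1 with the empty vector (0.66, adjusted p = 0.08597), and without its replicate 2 (0.68, 0.09569) or ΔIDR1b replicate 1 (0.74, 0.05929) with EWS-FLI1. The call against WT was lost without WT replicate 1 (0.58, 0.1821), ΔIDR1b replicate 1 (0.68, 0.107) or ΔIDR1b replicate 2 (0.77, 0.06334).

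Of the 4 ligands, TGFB1 was the most abundant per transcript length, with 150.1 ± 0.937 TPM (SD, n = 2; TPM is CPM corrected for transcript length) without ARID1A and with the empty vector, against 48.4 ± 2.50 for BMP7, 11.7 ± 0.482 for BMP4 and 1.12 ± 0.437 for TGFB2. TGFB1 (chr19:41301587-41353922, minus strand), the main TGF-β ligand of many tissues, read 125 and 123 CPM without ARID1A, 152 and 123 in WT, and 136 and 125 in ΔIDR1b with the empty vector. Under EWS-FLI1 the values were 114 and 106 without ARID1A, 139.9 and 157 in WT, and 119 and 135 in ΔIDR1b. The states overlapped with the empty vector. Under EWS-FLI1 both WT libraries lay above all others. TGFB1 rose only in WT against no ARID1A with EWS-FLI1 among the 6 comparisons of states, by 0.43 ± 0.11 (adjusted p = 0.005897), and this was lost without no ARID1A replicate 2 (0.38, adjusted p = 0.1016). With the empty vector the same comparison gave 0.15 ± 0.11 (adjusted p = 0.4368); the 2 differences were not shown to differ, since the interaction of state and EWS-FLI1 had an adjusted p of 0.9996. Of TGFB1's exonic bases 6.59% overlap exons of HNRNPUL1, and fragments there were not counted for either gene.

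TGFB2 (chr1:218345336-218444619, plus strand), a ligand known from development of the heart, eye and kidney, was near the lower limit of what these libraries measure. It read 1.26 and 2.17 CPM without ARID1A, 3.79 and 4.56 in WT, and 3.07 and 1.93 in ΔIDR1b with the empty vector, from sums of 46, 112 and 69 counts over both libraries. With EWS-FLI1 the libraries read 1.62 and 1.30, 2.94 and 2.43, and 2.34 and 2.09 CPM, and the libraries of WT lay above the others under both vectors. TGFB2 rose in WT against no ARID1A with the empty vector by 1.28 ± 0.40 (adjusted p = 0.03293), and with EWS-FLI1 the difference was 0.87 ± 0.43 (adjusted p = 0.1618). The call was lost when either library of either group was left out, with log2 fold changes from 0.94 to 1.72 and adjusted p from 0.05332 to 0.2656. Exons of TGFB2-OT1 and TGFB2-AS1 cover 34.25% of its exonic bases, where fragments were assigned to no gene and strand was not used.

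BMP4 (chr14:53949736-53958761, minus strand) and BMP7 (chr20:57168753-57266641, minus strand), the BMP ligands of the set, passed the test in 0 of the 6 comparisons of states. BMP4 lay between 7.09 and 14.7 CPM over all libraries and its log2 differences between states ran from -0.08 to 0.50, with the largest, WT against no ARID1A with the empty vector, at 0.50 ± 0.22 (adjusted p = 0.1315). BMP7 lay between 60.9 and 81.0 CPM, and its differences ran from -0.11 to 0.17. For BMP7 in ΔIDR1b against no ARID1A with the empty vector the 95% interval was -0.14 to 0.36 on the log2 scale, and for BMP4 it was -0.02 to 0.86. Of BMP4's exonic bases, 16.3% overlap an antisense gene and were not counted.

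SMAD6 (chr15:66702236-66782849, plus strand) encodes the inhibitory SMAD that acts mainly on the BMP branch. It read 65.0 and 74.9 CPM without ARID1A, 37.9 and 34.5 in WT, and 38.9 and 35.4 in ΔIDR1b with the empty vector. With EWS-FLI1 it read 60.9 and 66.6, 29.8 and 33.0, and 26.7 and 32.7 CPM. Every library without ARID1A lay above every library with either form, and the libraries of WT and ΔIDR1b overlapped. SMAD6 fell with WT by 0.95 ± 0.13 (adjusted p = 6.05e-06) with the empty vector and by 1.02 ± 0.13 (adjusted p = 1.019e-06) with EWS-FLI1. With ΔIDR1b it fell by 0.91 ± 0.13 (adjusted p = 1.497e-06) and by 1.10 ± 0.13 (adjusted p = 6.038e-08).

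SMAD7 (chr18:48919853-48950965, minus strand), the inhibitory SMAD that also recruits ubiquitin ligases to the TGF-β receptor, followed the same pattern. It read 58.7 and 54.8 CPM without ARID1A, 33.2 and 35.8 in WT, and 33.3 and 27.7 in ΔIDR1b with the empty vector. Its values with EWS-FLI1 were 61.1 and 59.1, 27.2 and 29.6, and 25.1 and 26.1 CPM. The libraries without ARID1A were again the highest, and those of WT and ΔIDR1b overlapped with the empty vector but not under EWS-FLI1, where ΔIDR1b was lower. SMAD7 fell with WT by 0.72 ± 0.13 (adjusted p = 0.0002649) and with ΔIDR1b by 0.90 ± 0.13 (adjusted p = 1.891e-06) with the empty vector, and by 1.08 ± 0.13 (adjusted p = 2.99e-07) and 1.23 ± 0.13 (adjusted p = 6.029e-09) with EWS-FLI1.

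Between the 2 forms of ARID1A the differences of the inhibitory SMADs did not pass the test. ΔIDR1b minus WT was 0.04 for SMAD6 with the empty vector (95% interval -0.24 to 0.31) and -0.08 with EWS-FLI1 (-0.36 to 0.20). For SMAD7 it was -0.18 (-0.45 to 0.09) and -0.15 (-0.42 to 0.13). These intervals leave room for a difference in either direction for both genes.

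ID1 (chr20:31605283-31606515, plus strand) read 35.3 and 35.7 CPM without ARID1A, 30.7 and 25.3 in WT, and 17.9 and 18.9 in ΔIDR1b with the empty vector. With EWS-FLI1 it read 33.5 and 31.2, 24.6 and 20.8, and 14.2 and 14.7 CPM. The 3 states formed descending levels with no overlap under either vector. ID1 fell with ΔIDR1b against no ARID1A by 0.95 ± 0.15 (adjusted p = 7.826e-06) with the empty vector and by 1.16 ± 0.16 (adjusted p = 3.664e-07) with EWS-FLI1. Against WT, ΔIDR1b gave -0.61 ± 0.15 (adjusted p = 0.003434) with the empty vector and -0.65 ± 0.16 (adjusted p = 0.003376) with EWS-FLI1. The former was lost without WT replicate 1 (-0.46, adjusted p = 0.09658).

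WT against no ARID1A gave a smaller difference in ID1. It was -0.34 ± 0.15 with the empty vector (adjusted p = 0.1282) and -0.51 ± 0.15 with EWS-FLI1 (adjusted p = 0.01529), of which the latter passed. That call was lost in a fit of the 4 libraries compared alone and after trends with gene length and base composition were removed (-0.31, adjusted p = 0.09405). It was also lost without no ARID1A replicate 1 (-0.46, adjusted p = 0.1426), no ARID1A replicate 2 (-0.56, 0.06) or WT replicate 2 (-0.39, 0.114).

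ID3 (chr1:23557926-23559501, minus strand) was the most abundant of the 10 genes per length without ARID1A, at 548 ± 22.5 TPM (SD, n = 2), against 114 ± 2.83 for ID1. With the empty vector it read 216 and 199 CPM without ARID1A, 123 and 93.5 in WT, and 55.0 and 49.8 in ΔIDR1b. The values under EWS-FLI1 were 204 and 202, 103 and 105, and 65.3 and 52.8 CPM. No library of one state overlapped another state, and the order was the same under both vectors. ID3 fell with WT by 0.94 ± 0.12 (adjusted p = 9.209e-07) and with ΔIDR1b by 1.99 ± 0.12 (adjusted p = 1.864e-14) with the empty vector, and by 0.97 ± 0.12 (adjusted p = 2.99e-07) and 1.78 ± 0.12 (adjusted p = 2.049e-13) with EWS-FLI1. ΔIDR1b against WT gave a log2 fold change of -1.04 ± 0.12 (adjusted p = 1.328e-07) with the empty vector and -0.81 ± 0.12 (adjusted p = 1.25e-05) with EWS-FLI1. Among the 6 comparisons of states ID3 was the only one of the 10 genes that passed in all of them, and it did so under each of the 21 alternative settings.

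ID1 and ID3 are short genes, with 1233 and 1496 exonic bases, and short genes as a group were lower in ΔIDR1b. Among genes of at least 10 CPM, the 686 genes under 2 kb had a median log2 fold change of -0.30 for ΔIDR1b against no ARID1A with the empty vector, and 30.0% of them were below -0.5, beside a median of 0.08 for genes over 5 kb. With EWS-FLI1 the medians were -0.26 and 0.09. In WT against no ARID1A with the empty vector the medians were 0.06 in both classes. After trends with length and GC content were removed from each library, ID3 still differed by -1.78 (adjusted p = 1.084e-20) and ID1 by -0.69 (adjusted p = 6.295e-05) in ΔIDR1b against no ARID1A with the empty vector. Against WT the values were -0.94 (adjusted p = 1.059e-10) and -0.47 (adjusted p = 0.007889).

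EWS-FLI1 against the empty vector changed 0 of the 10 genes in each of the 3 states and in the average over the states, by edgeR and by DESeq2. Over all genes 0.0442% were called without ARID1A, 0.221% in WT, 0.172% in ΔIDR1b and 0.466% in the average. At an unadjusted p under 0.05 there were 0 genes without ARID1A, 2 in WT (BMP4 and SMAD7), 2 in ΔIDR1b (SMAD6 and ID1) and 2 in the average (SMAD6 and ID1), beside 643, 1331, 1110 and 1610 of the 20377 genes tested. The values in the average were -0.22 ± 0.08 for SMAD6 (adjusted p = 0.3443) and -0.26 ± 0.09 for ID1 (adjusted p = 0.3108), and that of ID3 was 0.03, with a 95% interval from -0.11 to 0.17. The interaction test, which asks if EWS-FLI1 acts differently in the 3 states, called 0 of the 10 genes, with 0 at an unadjusted p under 0.05 (694 of all genes) and 0 by DESeq2, where 0.0245% of all genes were called. With the block within each vector the calls over all genes rose from 9 to 17 without ARID1A, from 45 to 119 in WT, from 35 to 109 in ΔIDR1b, from 95 to 232 in the average and from 5 to 20 in the interaction, and 0 of the 10 genes were among them.

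Around these 10 genes, 111 other genes of the pathways were listed by role, and 97 of them were tested. The lists too were chosen with earlier results of these data known, so their counts cannot show that they stand out. WT against no ARID1A with the empty vector called 21 of the 97, 12 higher and 9 lower, and ΔIDR1b against no ARID1A called 42, 29 higher and 13 lower. ΔIDR1b against WT called 29, 13 higher and 16 lower. Over all genes 11.7%, 33.3% and 24.5% were called in these comparisons. With EWS-FLI1 the counts were 28 (19 higher and 9 lower), 42 (28 higher and 14 lower) and 19 (8 higher and 11 lower) of the 97, beside 18.1%, 35.9% and 18.6% of all genes. The median log2 fold change over the 97 genes in ΔIDR1b against no ARID1A was 0.22 (empty vector) and 0.23 (EWS-FLI1), beside 0.00 and 0.02 over all genes. The count in ΔIDR1b against WT with EWS-FLI1 became 29 with the block within each vector and 8 in a fit of the 4 libraries compared alone.

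These counts depended on single libraries. With the empty vector, the 21 genes in WT against no ARID1A became 12 without no ARID1A replicate 2 and 11 without WT replicate 1. The 29 in ΔIDR1b against WT became 19 without either WT library, 16 without ΔIDR1b replicate 1 and 18 without ΔIDR1b replicate 2. With EWS-FLI1, the 28 in WT against no ARID1A became 16 without either library of no ARID1A, and the 19 in ΔIDR1b against WT became 29 without WT replicate 2 and 11 without ΔIDR1b replicate 2.

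**Figure D2:**
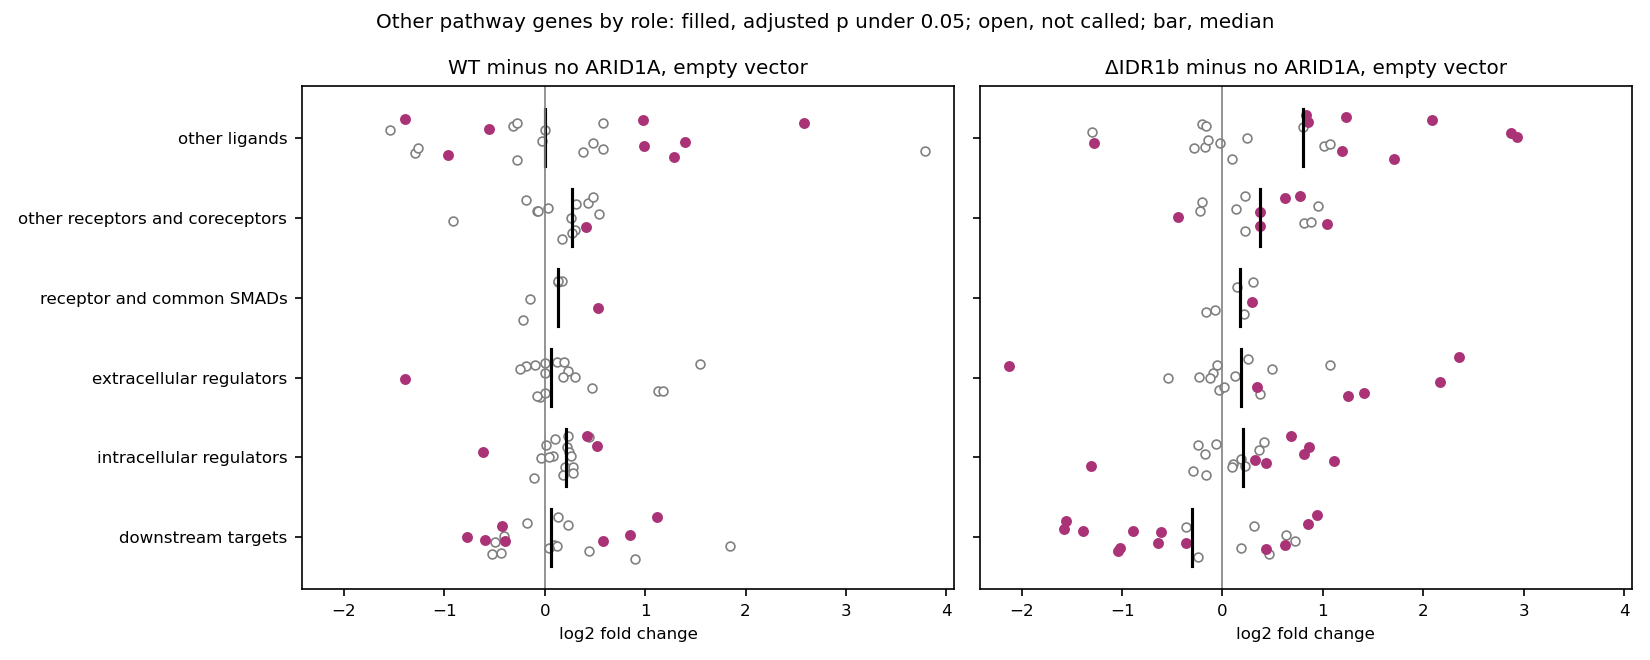
Log2 fold change (horizontal axis) of the 97 other pathway genes tested, by role, for WT (left) and ΔIDR1b (right) against no ARID1A with the empty vector; filled points have an adjusted p under 0.05 and bars are medians of a list. In ΔIDR1b the other ligands have a median of 0.81 and the downstream targets one of -0.30.

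Among 21 other ligands tested, 5 were higher and 3 lower in WT against no ARID1A with the empty vector, and 8 were higher and 1 lower in ΔIDR1b. Over all genes 6.5% were higher and 5.19% lower in WT, and 16.4% were higher and 16.8% lower in ΔIDR1b. INHBA, a subunit of activin, read 3.35 and 1.57 CPM without ARID1A, 16.6 and 12.9 in WT, and 17.6 and 20.1 in ΔIDR1b with the empty vector. It rose by 2.58 ± 0.27 in WT (adjusted p = 3.335e-08) and by 2.93 ± 0.27 in ΔIDR1b (adjusted p = 1.852e-10). GDF6, a BMP-family ligand, averaged 0.745 CPM without ARID1A and 5.53 in ΔIDR1b, a rise of 2.88 ± 0.40 (adjusted p = 1.071e-06). INHA, the subunit that turns activin into inhibin, fell by 1.39 ± 0.33 in WT (adjusted p = 0.004641) and by 1.28 ± 0.32 in ΔIDR1b (adjusted p = 0.002513). The call in WT was lost without no ARID1A replicate 1 (adjusted p = 0.05666) or WT replicate 1 (0.09167), and that in ΔIDR1b without ΔIDR1b replicate 2 (0.09929).

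Of 14 other receptors and coreceptors, 1 was higher and 0 lower in WT and 5 were higher and 1 lower in ΔIDR1b against no ARID1A with the empty vector, beside 11.7% and 33.3% of all genes called in either direction, so neither count is a result about the list. RGMA, a BMP coreceptor, averaged 7.01 CPM without ARID1A and 14.4 in ΔIDR1b, a rise of 1.04 ± 0.21 (adjusted p = 0.0001731), and ACVR1, a type I BMP receptor, rose by 0.77 ± 0.18 (adjusted p = 0.0009078). Of the 6 receptor and common SMADs, the signal carriers, only SMAD5 passed in these 2 comparisons, higher by 0.53 ± 0.11 in WT (adjusted p = 0.001459) and by 0.30 ± 0.11 in ΔIDR1b (adjusted p = 0.0367). In ΔIDR1b that of SMAD5 was lost in DESeq2 (adjusted p = 0.05281) and on leaving out either library without ARID1A of either vector or ΔIDR1b replicate 2, with adjusted p up to 0.2846. The other 5, SMAD1, SMAD2, SMAD3, SMAD4 and SMAD9, gave values from -0.22 to 0.30 that did not pass.

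Among 18 extracellular regulators, 0 were higher and 1 lower in WT and 5 were higher and 1 lower in ΔIDR1b against no ARID1A with the empty vector, beside 11.7% and 33.3% of all genes called, so neither count is a result about the list. FSTL3, which binds activin, rose in ΔIDR1b by 1.25 ± 0.17 (adjusted p = 6.08e-07), a call not tried under the alternative settings. THBS1, an activator of latent TGF-β, was a low gene that averaged 0.783 CPM without ARID1A and 3.55 in ΔIDR1b. Its rise was 2.17 ± 0.46 (adjusted p = 0.0004032). NOG (noggin), a secreted BMP antagonist and a short gene of 1913 exonic bases, was the gene that fell in each. It read 60.1 and 46.4 CPM without ARID1A, 19.0 and 21.5 in WT, and 16.0 and 8.44 in ΔIDR1b, and it fell by 1.39 ± 0.19 (adjusted p = 5.43e-06) and by 2.12 ± 0.20 (adjusted p = 4.213e-10). ΔIDR1b against WT gave -0.73 ± 0.21 (adjusted p = 0.008857), which was lost in DESeq2 (adjusted p = 0.09161), without WT replicate 2 (0.08838) and without ΔIDR1b replicate 2 (0.3328).

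Among 18 intracellular regulators, 2 were higher and 1 lower in WT, and 6 were higher and 1 lower in ΔIDR1b, again near the 11.7% and 33.3% of all genes called. SKI, a corepressor that binds SMADs, read 57.3 and 55.9 CPM without ARID1A, 84.4 and 78.4 in WT, and 123 and 121 in ΔIDR1b with the empty vector. It rose by 0.53 ± 0.12 in WT (adjusted p = 0.004246) and by 1.11 ± 0.12 in ΔIDR1b (adjusted p = 1.187e-08), and in WT the call was lost without no ARID1A replicate 2 (adjusted p = 0.06468) or WT replicate 1 (0.07421). TOB1, an antiproliferative protein that restrains BMP signalling, was the gene that fell in both comparisons, by 0.61 ± 0.13 (adjusted p = 0.0023) and by 1.31 ± 0.14 (adjusted p = 4.577e-09); without WT replicate 1 the former had an adjusted p of 0.05192. SMURF1, a ubiquitin ligase for BMP SMADs, rose in ΔIDR1b by 0.86 ± 0.14 (adjusted p = 6.478e-06). ΔIDR1b differed from WT in SKI by 0.58 ± 0.12 (adjusted p = 0.0005048) and in TOB1 by -0.70 ± 0.14 (adjusted p = 0.0003618).

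Among 20 other downstream targets, 3 were higher and 4 lower in WT, and 4 were higher and 9 lower in ΔIDR1b, against no ARID1A with the empty vector. In ΔIDR1b against WT, 2 were higher and 9 lower. Over all genes 5.19% were lower in WT and 16.8% in ΔIDR1b against no ARID1A, and 13.4% in ΔIDR1b against WT. The shares that were higher were 6.5%, 16.4% and 11.1%. Of genes under 2 kb with at least 10 CPM, 30.0% had a log2 fold change below -0.5 in ΔIDR1b against no ARID1A, and 32.65% against WT. Of the targets named below that fell, JUNB (1830 exonic bases) and DLX5 (1744) are under 2 kb. ID2 (2213), ID4 (3873) and HEY1 (5487) are longer. The part of gene length in the counts of this list was not tested. ID2, of the same family as ID1 and ID3, read 275 and 255 CPM without ARID1A, 160.3 and 150.004 in WT, and 104 and 98.1 in ΔIDR1b, and fell by 0.77 ± 0.10 (adjusted p = 2.393e-06) and by 1.39 ± 0.10 (adjusted p = 1.988e-12). JUNB, an AP-1 subunit induced by TGF-β, fell by 0.40 ± 0.13 in WT (adjusted p = 0.03394) and by 1.56 ± 0.13 in ΔIDR1b (adjusted p = 3.177e-11). HEY1, a repressor of the HES family induced by BMP, fell by 0.60 ± 0.11 in WT (adjusted p = 0.0002185) and by 1.02 ± 0.11 in ΔIDR1b (adjusted p = 4.02e-09). DLX5, a homeobox target of BMP in bone, fell by 1.58 ± 0.22 in ΔIDR1b (adjusted p = 1.127e-06). CDKN1A, the cell cycle inhibitor p21, rose by 0.58 ± 0.11 in WT (adjusted p = 0.0006371) and by 0.85 ± 0.11 in ΔIDR1b (adjusted p = 3.569e-07). ID4, named after its values were seen as the last member of the ID family, gave 0.13 ± 0.13 in WT (adjusted p = 0.5676) and fell by 0.65 ± 0.13 in ΔIDR1b (adjusted p = 0.0002074). Of JUNB's exonic bases 14.15% overlap exons of HOOK2 and were not counted. The values against no ARID1A of ID2, HEY1 and ID4 in ΔIDR1b, and of JUNB, CDKN1A and ID4 in WT, were not tried under the alternative settings.

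**Figure D3:**
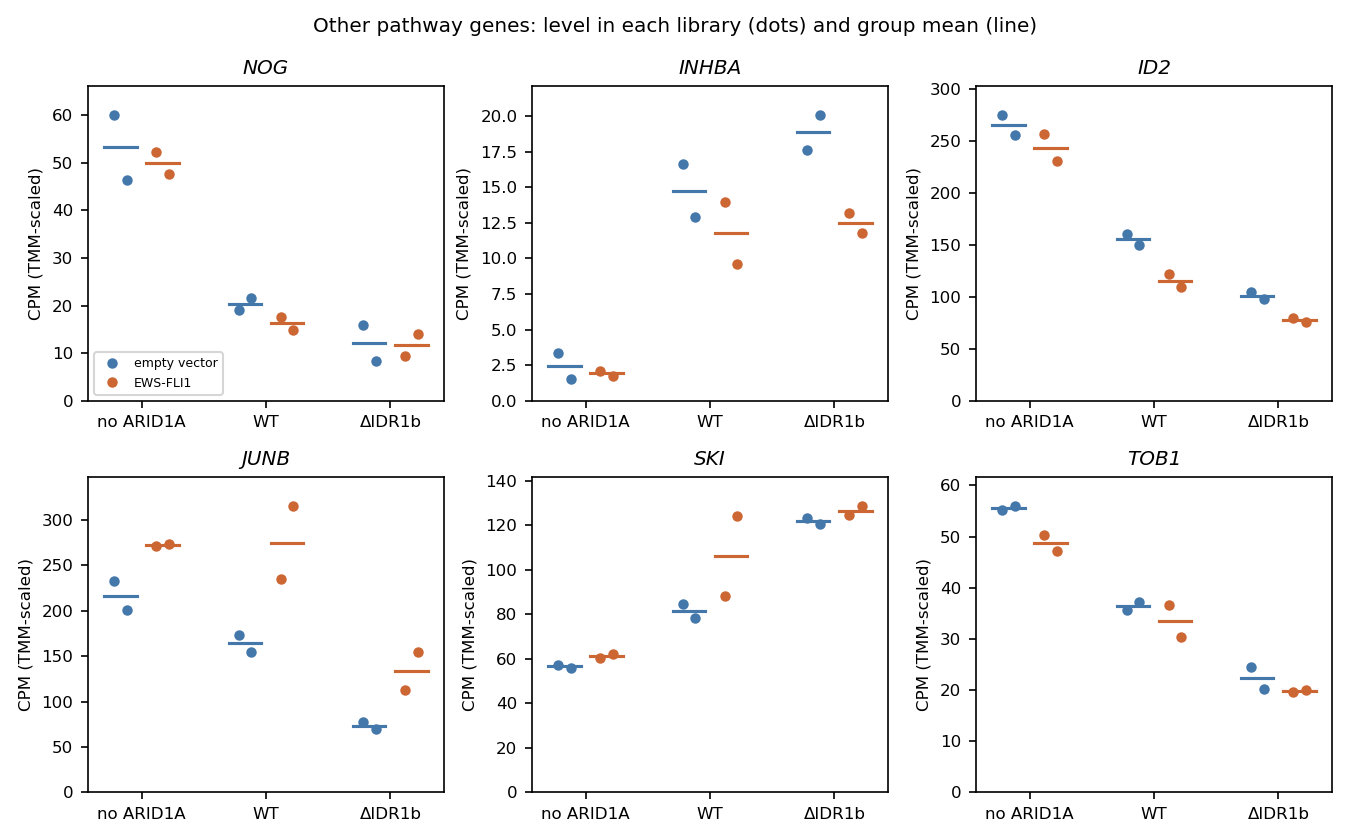
Level in CPM (vertical axes, starting at 0) of 6 other pathway genes in the 12 libraries, by ARID1A state and vector (blue, empty vector; orange, EWS-FLI1); dots are libraries and lines group means of 2 libraries. NOG, ID2 and TOB1 are highest without ARID1A, INHBA is lowest there, SKI rises to 121 to 129 CPM in ΔIDR1b, and JUNB is higher with EWS-FLI1 in WT and ΔIDR1b.

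Although 0 of the 10 genes passed for EWS-FLI1, a few other pathway genes did, and they are named here after their values were seen. JUNB was the 1 gene of the 97 that passed in WT, where it rose by 0.74 ± 0.13 (adjusted p = 0.001206), and in ΔIDR1b, where it rose by 0.87 ± 0.13 (adjusted p = 0.0001714). In the average over states 6 of the 97 passed, 3 higher and 3 lower. JUNB rose by 0.65 ± 0.07 (adjusted p = 3.356e-07), GDF15, a stress-induced ligand, by 0.71 ± 0.12 (adjusted p = 0.000454), and GDF6 by 0.96 ± 0.22 (adjusted p = 0.02257). ID2 fell by 0.31 ± 0.06 (adjusted p = 0.003523), ID4 by 0.33 ± 0.08 (adjusted p = 0.02529) and MSX2, a homeobox target of BMP, by 0.38 ± 0.08 (adjusted p = 0.02209). These counts depended on single libraries: without WT replicate 1 with EWS-FLI1 there were 6 genes in WT, 3 in ΔIDR1b and 10 in the average, and without WT replicate 2 with EWS-FLI1 there were 3 in ΔIDR1b. Without no ARID1A replicate 2 with EWS-FLI1, or either WT or ΔIDR1b replicate 1 with the empty vector, there were 3 in the average. With the block within each vector 1 gene passed without ARID1A, 6 in WT and 4 in ΔIDR1b. Only these counts, and not the values of each gene for EWS-FLI1, were tried under the alternative settings.

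Some genes followed the 10 closely over the 12 libraries, given by Pearson's r of log2 CPM among 15125 candidate genes and for the 4 genes of the widest range. ID3 was most like SNHG17 (r = 0.99), H3-3B (0.99) and SNHG15 (0.99), and ID1 was most like HOTAIRM1 (0.99), TTC28-AS1 (0.98) and HSPE1 (0.98). SMAD6 was most like IDI2-AS1 (0.99), PLA2G6 (0.98) and HOXB6 (0.97), and TGFB2 was most like DUSP4 (0.92), AKTIP (0.91) and WWC2 (0.90). These values describe 12 libraries in 6 groups that share the knockout line, so they mostly repeat the differences between groups. Within the set r was 0.96 for SMAD6 with SMAD7 and 0.92 for ID1 with ID3.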

How the data were processed

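PolyA RNA of 12 libraries was counted by the authors by gene name over GENCODE 41 exons (GRCh38 patch 13) with featureCounts 2.0.1, giving whole-number counts of read pairs, per the file headers. Per the file headers, both ends had to be aligned, strand was not used, and pairs with several alignments or touching several genes were left out. STAR, SAMtools, featureCounts and edgeR are named in the submitters' processing notes, and the aligner's version is not given in the sources used here. The deposited counts carry no normalization.

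The filter was edgeR's filterByExpr with a minimum count of 10 and a minimum total of 15, which left 20377 genes and 99.788 to 99.871% of the counts of a library. Scaling was by TMM (trimmed mean of M-values). The quasi-likelihood model of edgeR 4.0.16 (limma 3.58.1, R 4.3.3) had 1 mean for each group over all 12 libraries, and 11 contrasts were tested with 2-sided F-tests and Benjamini-Hochberg adjustment over all genes tested. The standard error is the log2 fold change divided by the square root of F. CPM are on the scaled sizes, and TPM use exonic length. A library's floor of 3 counts is 0.208 to 0.256 CPM. Intervals are at 95%. Floors reflect only counting error, because PCR copies of a fragment are not separate molecules. The procedure was tested on simulated data.

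The repeat numbers of a group's libraries are not said to mark a batch. Deviations of same-numbered libraries from their group means correlated above 0.1 in all 6 pairs of groups with the same vector (0.11 to 0.41) and were negative in all 9 pairs with different vectors (-0.22 to -0.01). Pairing within a vector thus rests on these values and on no label.

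Alternatives were upper-quartile and RLE scaling, DESeq2 1.42.0, no filter, the repeat number as a block (over all groups or within each vector), a fit of the libraries compared alone, and each library left out. A crossed block and the removal of trends with length and GC content (known for 96.9% of genes and 107 of 107 listed ones) were added after seeing the data. The members, lists and tests were chosen with earlier results of these data known. Named were the 10 genes, ARID1A and FLI1, and, per list, direction and comparison of states, up to 2 called genes with the largest fold change, a mean of at least 1 CPM and no overlap of libraries. For the 4 members of the widest range, the 3 genes most alike were named. JUNB in WT, ID4 and the genes called for EWS-FLI1 were named after their values were seen. RefSeq promoter windows were read as given.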

Additional observations from a re-analysis of the deposited data

How the results depend on the processing

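Of the 26 calls among the 10 genes, 18 held under all 21 alternatives, and the others are given with the gene. Another 3 comparisons passed under some alternative: TGFBR1 in WT against no ARID1A with the empty vector (also without either WT library with EWS-FLI1, adjusted p = 0.04429 and 0.04395), TGFBR2 in ΔIDR1b against WT with EWS-FLI1 (also without WT replicate 1, 0.84, adjusted p = 0.0309), and TGFB1 in that comparison after trends with length and GC content were removed (-0.27, adjusted p = 0.008527). BMP4's standard error of 0.21 to 0.23 on the log2 scale between ARID1A states, against 0.12 for TGFBR1, limits what can be said of its differences.

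With the repeat number as a block over all groups the 10 genes gave the same counts as without it (4, 6 and 3 for the empty vector, 5, 6 and 2 for EWS-FLI1). The block within each vector gave 3606 genes in WT against no ARID1A with the empty vector, 29 other pathway genes in ΔIDR1b against WT with EWS-FLI1, and for EWS-FLI1 against the empty vector 1 other pathway gene of 17 genes without ARID1A, 6 of 119 in WT, 4 of 109 in ΔIDR1b, 232 genes in the average and 20 in the interaction. Beside the calls named with their gene it changed no call of the 10. A crossed block gave 1 other pathway gene without ARID1A, 5 of 80 genes in WT, 2 of 63 in ΔIDR1b and 159 genes in the average.

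Removing the trends gave 3792 genes in WT against no ARID1A with the empty vector, and for EWS-FLI1 1 other pathway gene of 16 genes without ARID1A, 6 of 107 in WT, 5 of 96 in ΔIDR1b, 10 of 216 in the average and 1 of 8 in the interaction. It turned the direction of 4 uncalled values: BMP7 to -0.0446 and -0.0874 in ΔIDR1b against no ARID1A with the empty vector and EWS-FLI1, and BMP7 to -0.10 and SMAD6 to -0.15 in ΔIDR1b against WT with the empty vector. A fit of the libraries compared alone gave 2202 genes in WT against no ARID1A and 1622 genes (8 other pathway genes) in ΔIDR1b against WT with EWS-FLI1, and for EWS-FLI1 2 other pathway genes of 16 genes without ARID1A, 26 genes in WT and 2 of 56 in ΔIDR1b. With no filter there were 1 other pathway gene of 16 without ARID1A, 5 of 75 in WT, 2 in ΔIDR1b and 15 genes in the interaction, and DESeq2 gave 2 other pathway genes in WT.

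Leaving out each library in turn gave ranges, in the order WT and ΔIDR1b against no ARID1A and ΔIDR1b against WT, first with the empty vector and then with EWS-FLI1. They were 3 to 5, 5 to 6, 1 to 3, 3 to 5, 4 to 6 and 2 to 3 for the 10 genes, 11 to 26, 31 to 47, 16 to 37, 16 to 28, 28 to 46 and 11 to 29 for the other pathway genes, and 802 to 3550, 4484 to 7781, 2754 to 6138, 1828 to 3795, 5038 to 8286 and 1886 to 4383 for all genes. For EWS-FLI1 without ARID1A, in WT, in ΔIDR1b, in the average and in the interaction they were 0 to 0 for the 10 genes, 0 to 1, 1 to 6, 1 to 3, 3 to 10 and 0 to 1 for the others, and 5 to 15, 24 to 230, 23 to 74, 65 to 316 and 4 to 49 for all genes. Some uncalled values changed sign. In WT against no ARID1A with the empty vector TGFBR2 ran from -0.0646 to 0.44 and TGFB1 from -0.0142 to 0.30. In ΔIDR1b against WT with the empty vector TGFB1 ran from -0.22 to 0.0839, BMP4 from -0.25 to 0.12, BMP7 from -0.0529 to 0.10 and SMAD6 from -0.0354 to 0.10. With EWS-FLI1, BMP4 ran from -0.12 to 0.40 and BMP7 from -0.0068 to 0.32 in WT against no ARID1A, BMP7 from -0.0923 to 0.18 in ΔIDR1b against no ARID1A, and BMP7 from -0.27 to 0.0583 and SMAD6 from -0.24 to 0.058 in ΔIDR1b against WT. The cause of these changes was not tested, except that fewer libraries enter a fit with one left out.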

Other observations

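CCN2 (CTGF), a matricellular target of TGF-β, moved in opposite directions with the 2 forms of ARID1A under the empty vector. It read 5.65 and 9.42 CPM without ARID1A, 18.2 and 14.5 in WT, and 3.95 and 4.15 in ΔIDR1b with the empty vector. CCN2 rose in WT by 1.11 ± 0.23 (edgeR adjusted p = 0.001342) and fell in ΔIDR1b by 0.89 ± 0.26 (adjusted p = 0.007062), and ΔIDR1b against WT gave -2.01 ± 0.25 (adjusted p = 3.169e-07). The fall in ΔIDR1b was not tried under the alternative settings. With EWS-FLI1, CCN2 read 7.25 and 6.31, 14.2 and 11.4, and 5.80 and 5.00 CPM in the same order. There it rose in WT against no ARID1A by 0.91 ± 0.24 (adjusted p = 0.006459), and this call was lost without no ARID1A replicate 2 (0.82). ΔIDR1b against WT gave -1.24 ± 0.24 (adjusted p = 0.000394) with EWS-FLI1. With the empty vector the rise of CCN2 in WT was lost without no ARID1A replicate 1 (0.79) or WT replicate 1 (0.95). Its exons overlap other genes over 8.34% of their bases.

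AMH, the anti-Müllerian hormone, fell in WT against no ARID1A by 0.96 ± 0.19 (adjusted p = 0.0006857) with the empty vector, and ΔIDR1b against WT was higher by 0.80 ± 0.19 (adjusted p = 0.001981). The latter was lost without ΔIDR1b replicate 1 (0.58, adjusted p = 0.07658).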
